A study of Mus musculus with 13 samples.

Results

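The secreted Wnt antagonists were examined in MP tumors and WT ovaries as a family of 9 genes of the 53465 in the deposited table: Sfrp1, Sfrp2, Sfrp4, Sfrp5, Frzb, Dkk1, Dkk2, Dkk3 and Wif1. They were taken by gene name, and the family was chosen because Sfrp4 is among the genes with the largest decrease in tumors, so tumor and ovary levels of the members are described here without a test. The 3 WT ovaries came from non-treated female C57BL/6 mice. The 10 MP tumors, labelled Myc;p53-/- EPO-GEMM and non-treated, arose in mice of that strain after the left ovary had been electroporated with plasmids carrying Cas9 and an sgRNA to Trp53, a MYC transposon and the Sleeping Beauty transposase. The protocol given for all samples states an age of 8 to 12 wk at the procedure. Electroporation did not select a cell type, RNA was taken at end point from whole tissue of each tumor, and tumors grew in immunocompetent hosts, so each library mixes tumor and host cells.

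Wnt proteins are lipid-modified ligands that bind Frizzled receptors together with the coreceptors LRP5 and LRP6, which protects beta-catenin from degradation and lets it act with TCF and LEF factors on target genes. Secreted antagonists limit this signal outside the cell. The SFRP proteins, Frzb included, carry a Frizzled-like cysteine-rich domain and bind Wnt ligands, as does Wif1 through another domain, whereas Dkk1 and Dkk2 bind the LRP coreceptors. Dkk3 shares the DKK fold but is not a typical LRP antagonist. In the ovary, Wnt4 is needed for female gonad development, and Sfrp4 is known from granulosa cells and corpora lutea of the cycling and pregnant ovary.

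Expression was given as TPM, a transcript abundance that is corrected for gene length and sums to 1000000 in each library. Reads worked back from the table came to 31445004 to 64013840 per WT ovary and 3892690 to 19906507 per MP tumor. A single read was worth 0.0513 to 0.790 TPM at a gene length of 1 kb. Library sets, meaning the project number shared by library names, placed all 3 WT ovaries with MP tumors 1 to 3 in set 1, MP tumors 4 to 6 in set 2 and MP tumors 7 to 10 in set 3, so set and tissue can be told apart within set 1 alone. Trp53, the edited gene, was at 80.7 to 85.4 TPM in WT ovaries, at 4.30 to 26.0 TPM in MP tumors 1 to 9 and at 187 TPM in the library labelled MP tumor 10. In MP tumor 2 the 10 most abundant genes took 55.1% of all TPM. Both libraries were kept.

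All 9 members are protein-coding genes on separate loci of GRCm38. Sfrp4 (ENSMUSG00000021319) lies on the plus strand at chr13:19623104-19632994, Sfrp1 (ENSMUSG00000031548) on the plus strand at chr8:23411502-23449632, and Sfrp2 (ENSMUSG00000027996) on the plus strand at chr3:83766321-83774316. Sfrp2 overlaps the antisense gene Gm26771, which stayed at or below 0.696 TPM in every library. Whether reads were counted by strand is not given in the sources used here. Dkk2 (ENSMUSG00000028031) is on the plus strand of the same chromosome at chr3:132085292-132180304. Frzb (ENSMUSG00000027004, chr2:80411970-80447625), Dkk3 (ENSMUSG00000030772, chr7:112116017-112159057), Sfrp5 (ENSMUSG00000018822, chr19:42197971-42202252) and Dkk1 (ENSMUSG00000024868, chr19:30545863-30549665) are on the minus strand, and Wif1 (ENSMUSG00000020218) is on the plus strand at chr10:121033960-121100650. Every other member overlapped no gene of GENCODE release 21.

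RefSeq windows of the 250 bases before the start site were at hand for 6 of the 9 members. Those of Sfrp2 and Dkk2 are shown because they ranged over 1.16 to 299.7 and 0.0486 to 13.2 TPM among tumors, the lowest Dkk2 value being 1 read, and their RefSeq start equals that of GENCODE. The Sfrp2 window is chr3:83766071-83766320 and the Dkk2 window chr3:132085042-132085291, both on the plus strand of GRCm38.p6 and written 5′ to 3′, with a TATA box (TATAAA) in capitals.
Sfrp2: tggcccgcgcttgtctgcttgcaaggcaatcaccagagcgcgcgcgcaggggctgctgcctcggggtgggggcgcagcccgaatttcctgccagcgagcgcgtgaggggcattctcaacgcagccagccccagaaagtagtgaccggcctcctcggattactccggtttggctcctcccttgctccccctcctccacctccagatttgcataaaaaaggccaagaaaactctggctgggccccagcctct
Dkk2: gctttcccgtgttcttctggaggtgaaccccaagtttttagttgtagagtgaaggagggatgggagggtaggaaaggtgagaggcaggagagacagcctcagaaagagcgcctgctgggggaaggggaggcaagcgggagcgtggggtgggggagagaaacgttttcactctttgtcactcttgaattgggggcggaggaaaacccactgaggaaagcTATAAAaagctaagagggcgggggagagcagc
GC content was 63.6% for Sfrp2 and 55.6% for Dkk2. The motifs searched, on both strands, were the E-box CACGTG bound by MYC and MAX, the TCF and LEF forms CTTTGAA and CTTTGAT, and TATAAA. They were present in 6.02%, 4.46%, 3.21% and 12.4% of 32851 RefSeq windows of the same length. The Sfrp2 window held none of these letters, the Dkk2 window held TATAAA, the Dkk1 window held CTTTGAA and TATAAA, and the Wif1 window held CACGTG and TATAAA. The Sfrp5 and Frzb windows held none. The RefSeq start equals that of GENCODE for Sfrp5 as well. It differs for Dkk1 (30549496 against 30549665), Frzb (80447396 against 80447625) and Wif1 (121034004 against 121033960), so those windows are less surely placed.

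In WT ovaries the family was almost entirely Sfrp4. The summed TPM of the 9 members was 1565, 1999 and 3661 in WT ovaries 1, 2 and 3, and Sfrp4 made up 87.3% to 93.7% of it. In MP tumors the sum ran from 13.01 through a median of 83.3 to 459 TPM, and Sfrp4 was the most abundant member in none of them. Sfrp2 led in 6 tumors (MP tumors 2, 3, 6, 8, 9 and 10), Dkk3 in MP tumors 1 and 4, Sfrp1 in MP tumor 5 and Frzb in MP tumor 7. Without Sfrp4, the other members summed to 177 to 230 TPM in WT ovaries and to 7.78 to 453 TPM in MP tumors, so these sums overlapped.

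**Figure D1:**
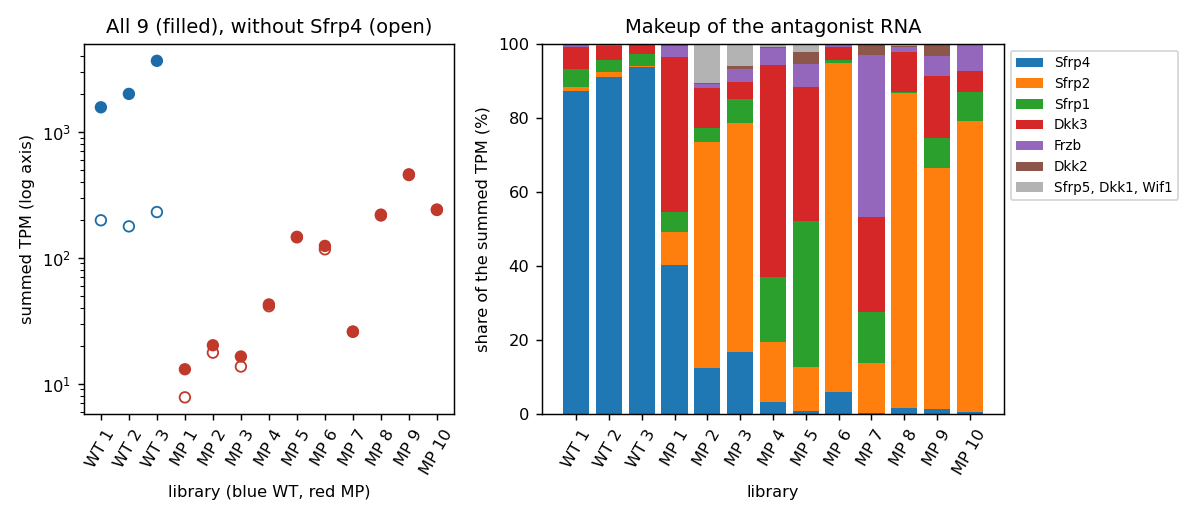
Makeup of the antagonist family in each library. The left panel gives the summed TPM on a log axis, for all 9 members (filled) and without Sfrp4 (open), in WT ovaries (blue) and MP tumors (red). Bars in the right panel give the percent of the sum of all 9 members taken by each gene, with Sfrp5, Dkk1 and Wif1 pooled in grey. In both panels WT ovaries come first and MP tumors follow. Sfrp4 fills 87.3% to 93.7% of each WT bar, while the leading gene of a tumor takes between 39.4% and 88.9%.

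Sfrp4 levels in tumors and ovaries did not overlap. It was at 1367, 1822 and 3431 TPM in WT ovaries 1, 2 and 3. In MP tumors it ran from 0.0988 TPM, a single read in MP tumor 7, through a median of 2.65 TPM to 7.48 TPM in MP tumor 6. The lowest ovary was 183 times the highest tumor, and Sfrp4 went from rank 32 of 53465 genes by mean TPM in WT ovaries to rank 12144 in MP tumors. On the log2(TPM + 1) scale, which understates changes of low values, Sfrp4 differed by -9.14 (SE 0.56; mean 2206 ± 1085 TPM, SD, n = 3, against 3.23 ± 2.38 TPM, n = 10).

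By this log2 fold change Sfrp4 was 4th of the 17277 genes tested, meaning genes with at least 1 TPM in at least 3 libraries. Among 827 genes that fell, had a mean of at least 10 TPM and did not overlap between groups, it stood after 3 steroid genes, Cyp11a1 (-9.61), Akr1c18 (-9.52) and Hsd3b1 (-9.25), and before the epoxide hydrolase gene Ephx2 (-8.77). Cyp11a1 and Hsd3b1 encode enzymes of steroid synthesis and Akr1c18 an enzyme of progesterone breakdown. Within library set 1, Sfrp4 differed by -8.87 on the same scale, and leaving out any 1 library gave between -9.43 and -8.77. It was -9.09 without MP tumors 2 and 10.

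Sfrp1, a Wnt-binding antagonist also linked to tissue stroma, had no overlap either. WT ovaries were at 77.8, 64.4 and 116 TPM, and MP tumors ran from 0.710 through a median of 2.32 to 57.7 TPM, with a log2 fold change of -3.91 (SE 1.07). The gap was narrow, since the lowest ovary was 1.12 times the highest tumor, and MP tumors 5, 9 and 10 at 57.7, 36.2 and 18.97 TPM stood above the other 7, which were at 7.47 TPM or less.

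Sfrp2 spread farthest among the abundant members and lay on both sides of the ovaries. WT ovaries were at 15.6, 27.98 and 12.8 TPM. MP tumors ran from 1.16 TPM in MP tumor 1 through a median of 14.8 to 299.7 TPM in MP tumor 9, with 110, 187 and 189 TPM in MP tumors 6, 8 and 10. Thus 5 tumors were below every ovary, 1 was within their range and 4 were above, and means were 18.8 ± 8.09 TPM for ovaries (SD, n = 3) and 83.8 ± 107 TPM for tumors (n = 10). The log2 fold change of 0.55 (SE 1.33) was smaller than its error. Within library set 1 it was -1.46, beside a median of -1.44 over all genes tested there.

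Frzb, also called Sfrp3 and first known from cartilage, was a low member in both tissues. WT ovaries were at 6.05, 7.61 and 10.9 TPM, and MP tumors ran from 0.222 through a median of 2.61 to 25.1 TPM (log2 fold change -0.97, SE 0.90). MP tumors 7, 9 and 10 were above every ovary and 6 tumors were below. Sfrp5 was at 2.94, 0.229 and 0.162 TPM in WT ovaries and at 0 in 7 tumors, with 1.70, 0.301 and 1.29 TPM in MP tumors 2, 4 and 8. At this depth 3 reads of Sfrp5 were worth up to 1.248 TPM in a tumor, so its levels were too low to order (log2 fold change -0.53, SE 0.40, and 0.014 after quantile normalization).

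Dkk3 was the most abundant of the Dickkopf genes in both tissues. WT ovaries were at 92.6, 74.5 and 88.6 TPM, close to the level of Sfrp1, whose range contained theirs. MP tumors ran from 0.781 TPM in MP tumor 3 through a median of 10.2 to 77.1 TPM in MP tumor 9 (log2 fold change -2.85, SE 0.94). All but 1 of the tumors were below every ovary, and only MP tumor 9 reached their range.

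Dkk2, which binds LRP coreceptors and can dampen or, in some settings, support the signal, was at 3.24, 2.67 and 2.19 TPM in WT ovaries. MP tumors ran from 0.0486 through a median of 0.251 to 13.2 TPM (log2 fold change -0.997, SE 0.68). The count of tumors below every ovary was 8, while MP tumors 5 and 9 were above at 4.48 and 13.2 TPM. Dkk1, the classical LRP antagonist and itself a Wnt target, was at 0, 0.0447 and 0.0846 TPM in WT ovaries and was seen in only MP tumors 3 and 9, at 0.282 and 0.310 TPM. Wif1 was at 0.0555, 0 and 0.0211 TPM in WT ovaries and was seen in MP tumors 2, 3, 5 and 9, at 0.445, 0.705, 3.26 and 1.55 TPM, with at most 15 reads. Where no read was seen, 3 reads would have been worth up to 0.977 TPM for Dkk1 and up to 0.795 TPM for Wif1. These limits cover counting error only.

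**Figure D2:**
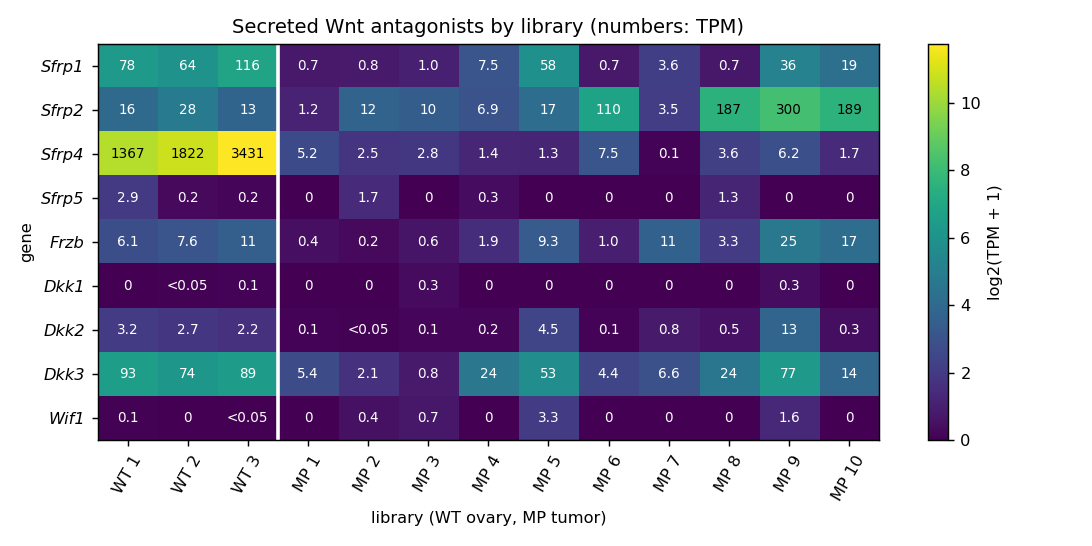
Level of each antagonist (rows) in each library (columns), coloured by log2(TPM + 1) with the TPM printed in each cell. Sfrp4 is at 1367 TPM or more in each WT ovary and at 7.48 TPM or less in every tumor, whereas Sfrp2 exceeds every ovary in 4 tumors.

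In mean level, the order in WT ovaries was Sfrp4, Sfrp1, Dkk3, Sfrp2, Frzb and Dkk2, with Sfrp5, Dkk1 and Wif1 below. Of neighbours in that order, Sfrp1 and Dkk3 overlapped, as did Dkk2 and Sfrp5, and the other neighbours down to Dkk2 did not. In MP tumors the order by mean was Sfrp2, Dkk3, Sfrp1, Frzb, Sfrp4 and Dkk2, and the ranges of all neighbours overlapped. Wif1, Sfrp5 and Dkk1, at 0 in 6, 7 and 8 tumors, were too low to order.

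The filter on low values passed 7 members and left out Dkk1 and Wif1. Log2 fold changes were negative for 6 of the 7 (5 after quantile normalization, where Sfrp5 turned), with a median of -0.997 beside -0.58 over all tested genes, of which 69.9% were negative. Sfrp4 and Sfrp1 were the 2 members lower without overlap. Across all tested genes 16.8% passed a Benjamini-Hochberg adjusted p of 0.05 in limma, 14.3% as lower and 2.51% as higher, while 16.4% had all tumors below all ovaries and 3.02% all tumors above. Since the family was chosen from this contrast, nothing is read from these counts. In bulk tissue, fewer cells of a type and less RNA per cell cannot be told apart.

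TPM scaling bears on the direction of the bulk of genes. Of the genes past the threshold, 15.0% were higher in tumors, against 40.2% with median-of-ratios scaling, 47.7% after quantile normalization and 47.3% with voom on the reads worked back. The all-gene median moved from -0.58 to -0.02, 0.08 and -0.03. Sfrp4 was then at -8.43, -9.17 and -9.02, and Sfrp1 at -3.31, -3.42 and -3.98.

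Some cell type markers differed along with these levels. All 7 luteal and steroid cell markers and all 7 granulosa markers were lower in MP tumors, with summed levels of 27226 to 32463 TPM in WT ovaries against 10.9 to 783 TPM in tumors for the first list, and 3556 to 6628 against 4.60 to 1509 TPM for the second. Cyp19a1 of the granulosa list met the filter through the ovaries alone. The luteal list holds Cyp11a1, Akr1c18 and Hsd3b1, the genes that stood before Sfrp4 in this same contrast. All marker lists were chosen with earlier results known, so nothing is read from the counts of lower markers. Of 10 fibroblast and stroma markers 3 were lower, and the summed level was 1455 to 2446 TPM in WT ovaries and 118 to 4800 TPM in MP tumors. Beside the 14.3% of all tested genes that were lower, lower markers numbered 1 of 3 tested for theca, 5 of 7 for smooth muscle and pericytes, 4 of 8 for epithelium, 2 of 4 for endothelium, 5 of 5 for oocytes and 0 of 4 for leukocytes (limma; 3 at an unadjusted p below 0.05, and 1 called with voom). The oocyte markers Zp1, Zp2 and Bmp15 met the filter through the ovaries alone. Of 55 markers tested 21 did not pass, no marker was higher, and none was at 0 in every tumor. MP tumors 5 and 9 had a higher summed fibroblast marker TPM than any ovary, 2547 and 4800, although Pdgfra, at 38.7 and 56.9 TPM, was below every ovary, and they held Sfrp4 at 1.32 and 6.21 TPM. The part of luteal and granulosa cells in the Sfrp4 difference was not tested.

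The rest of the Wnt pathway was followed through a list of 86 genes, of which 70 were tested. In all, 12 were lower (17.1%, against 14.3% of all tested genes), 1 was higher and 57 did not pass the threshold. Of the 12, Wnt7b and Dkkl1 met the filter through the ovaries alone, as did 347 of the 2463 lower genes in all. The list's median log2 fold change was -1.36, beside -0.58 over all tested genes. The share that fell was near that background here, while voom gave 31.4% of the list against 17.6% of all tested genes.

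Among ligands, 4 of 11 tested were lower and none higher, beside 14.3% and 2.51% of all tested genes. Wnt4, at 278, 188 and 318 TPM in WT ovaries, ran from 0 through a median of 1.47 to 53.5 TPM in MP tumors, and every tumor was below every ovary (log2 fold change -5.65, SE 1.27, limma adjusted p = 0.0072). MP tumors 4, 5 and 9 held 49.3 to 53.5 TPM of it and the others 5.34 TPM or less. Wnt5a, the main ligand of beta-catenin-independent signalling, averaged 50.1 ± 8.92 TPM over ovaries (SD, n = 3) and 7.14 ± 7.38 TPM over tumors (n = 10) (-3.23, SE 0.80, adjusted p = 0.0124 in limma). Wnt7b averaged 3.72 ± 0.97 and 0.155 ± 0.27 TPM (-2.04, SE 0.25). No tumor reached 1 TPM of Wnt7b, so it met the filter through the ovaries alone, where it is high, and no p is given. Porcn, the enzyme that attaches the lipid to Wnt ligands, was at 10.9, 28.5 and 24.7 TPM in WT ovaries and between 0.42 and 9.78 TPM in tumors (-2.84, SE 0.55, adjusted p = 0.00256 in limma).

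Of 10 Frizzled receptors 2 were lower, 1 was higher and 7 did not pass. Of 7 coreceptors and kinase-type receptors 1 was lower and 6 did not pass. Over all tested genes 14.3% were lower and 2.51% higher. Fzd1 (chr5:4753839-4758035) was at 73.3, 58.0 and 127 TPM in WT ovaries and ran from 0.843 through a median of 1.22 to 24.3 TPM in MP tumors, with no overlap (-4.62, SE 0.69, adjusted p = 0.000282 in limma). Fzd9, the single list gene that rose, was at 0.587, 0.899 and 1.70 TPM in WT ovaries and ran from 2.25 through a median of 19.8 to 78.2 TPM in MP tumors (3.31, SE 0.90, adjusted p = 0.0211 in limma). It missed the threshold without any 1 WT ovary (limma adjusted p = 0.0809 to 0.118). Every tumor was above every ovary for Fzd9, and MP tumors 6, 7 and 8 were highest, at 72.2 to 78.2 TPM. Fzd8 fell by 2.72 on the log2 scale (SE 0.78), and the receptor tyrosine kinase-like gene Ror1, a Wnt5a receptor, by 2.17 (SE 0.57). Of 9 R-spondins and their receptors only Lgr5, a stem cell marker that is also a Wnt target, was lower (-2.997, SE 0.89, adjusted p = 0.0319 in limma).

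Outside the 9 members, 2 of 5 other antagonists were lower, beside 14.3% of all tested genes, and nothing is read from so few. Dkkl1, a Dickkopf-like gene best known from testis, averaged 2.39 ± 1.19 TPM over ovaries (SD, n = 3) and 0.287 ± 0.246 TPM over tumors (n = 10) (-1.36, SE 0.26). No tumor reached 1 TPM of Dkkl1, so it too met the filter through the ovaries alone, and no p is given. Apcdd1, a membrane-bound inhibitor of Wnt reception, averaged 31.3 ± 5.52 and 7.498 ± 9.36 TPM (-2.67, SE 0.86, adjusted p = 0.0452 in limma), and it passed in 10 of the 23 settings tried. Of 11 target genes 2 were lower, Lgr5 and the feedback inhibitor Nkd1 (-3.05, SE 0.93, adjusted p = 0.036 in limma), which passed in 11 of 23 settings. None of 10 genes of the destruction complex and dishevelled and none of 8 nuclear factors passed the threshold in limma, with 3 of each at an unadjusted p below 0.05 and 2 and 3 called with voom.

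**Figure D3:**
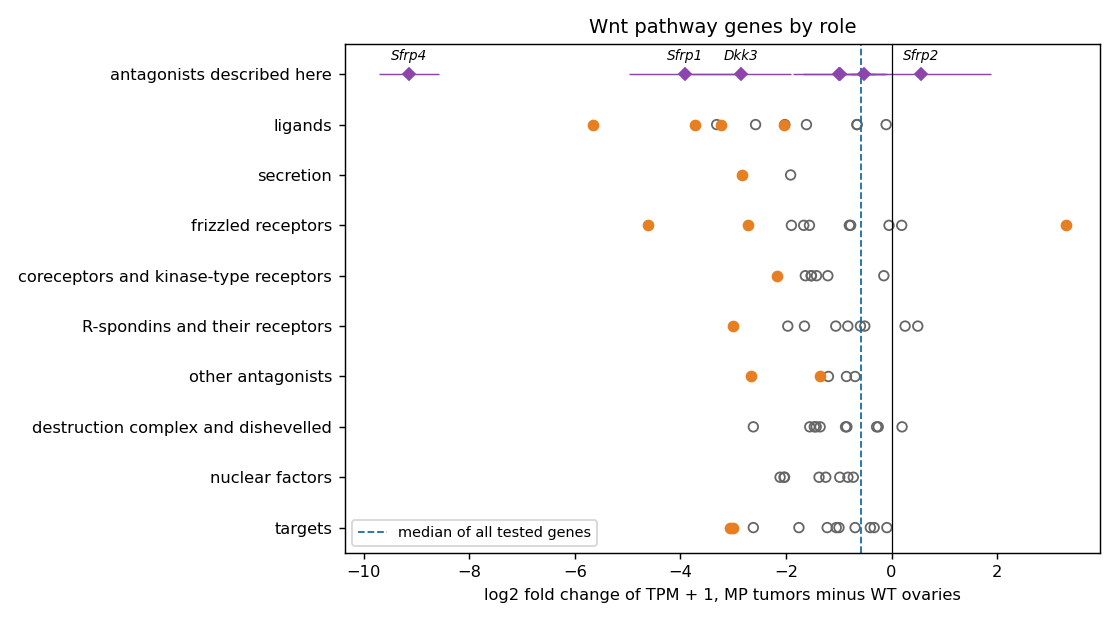
Log2 fold change of MP tumors against WT ovaries, on the log2(TPM + 1) scale, for each tested gene of the Wnt list by role (filled orange circles past an adjusted p of 0.05, open circles not) and for the 7 tested antagonists (purple diamonds with SE bars). The dashed line is the median of all tested genes, -0.58, and Fzd9 at 3.31 is the only filled circle above 0.

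Without any 1 WT ovary, 2 or 3 of the list's genes passed the threshold (2.94% to 4.41% of those tested, beside 3.61% to 4.06% of all tested genes): Fzd1 and Porcn each time, and Wnt4 without WT ovary 2. Wnt7b and Dkkl1 could not be tested there, because they no longer met the filter. Fold changes moved less than calls did, from -5.65 to between -5.87 and -5.49 for Wnt4 and from -3.23 to between -3.31 and -3.09 for Wnt5a. Without MP tumors 2 and 10, Lgr5, Nkd1 and Apcdd1 missed it (limma adjusted p = 0.0573, 0.0573 and 0.0686). Over 23 settings Fzd1 and Porcn passed in all 23, Wnt4 in 21, Wnt5a and Fzd9 in 20, Fzd8 and Ror1 in 19 and Lgr5 in 17. Without MP tumor 9, 19 were lower (27.5%, beside 19.2%). Within library set 1, 62 of 68 tested list genes were lower (91.2%, beside 62.4% of all tested genes), and 6.84% of all were higher there.

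The variation among tumors did not enter the choice of the family and was tested. Across the 10 MP tumors, members were set against the mean log2(TPM + 1) of 10 fibroblast markers (Pdgfra, Pdgfrb, Dcn, Lum, Col1a1, Col1a2, Col3a1, Thy1, Fap and Postn). MP tumors 5 and 9 stood apart at 6.56 and 7.56, while the other 8 lay between 2.90 and 4.58. Each p is from 100000 permutations, 2-sided, and was adjusted by the Benjamini-Hochberg method over all 22925 genes with a read in at least 3 tumors, the markers themselves left out. Dkk1, read in fewer tumors, is given without adjustment.

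Many genes rose with these markers in TPM. The median r over all genes was 0.38, and 23.4% had r above 0 at an unadjusted p below 0.05, as did 5 of the 8 members compared (Dkk2, Sfrp1, Frzb, Dkk3 and Wif1, with a median r of 0.75 over the 8). By Spearman's rho the share was 27.1%, and 3 of the 8 members (Dkk2, Frzb and Dkk3) were among those genes.

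Dkk2 had the highest r of the members and was the only one past the adjusted threshold. For Dkk2 Pearson's r was 0.97 (permutation p = 0.00013, adjusted 0.0417) and Spearman's rho 0.94 (permutation p = 0.00016, adjusted 0.0616), and r was 0.86 without MP tumors 5 and 9, the tumors farthest from the median. The other 8 tumors held only 1 to 11 reads of Dkk2 each, so that value rests on few reads. For Frzb r was 0.82 (permutation p = 0.00155, adjusted 0.078), rho was 0.92 (permutation p = 0.00054, adjusted 0.0659), and r was 0.94 without both tumors.

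Sfrp1, Dkk3 and Wif1 did not pass after adjustment. For Sfrp1 r was 0.85 (permutation p = 0.00268, adjusted 0.09) and rho 0.59 (permutation p = 0.0803, adjusted 0.229), with r = 0.59 without both tumors. For Dkk3 r was 0.75 (permutation p = 0.00897, adjusted 0.125) and rho 0.67 (permutation p = 0.0388, adjusted 0.153), with r = 0.28 without them. Wif1, read in 4 tumors only, had r = 0.75 (permutation p = 0.0252, adjusted 0.168) and rho = 0.34 (permutation p = 0.33, adjusted 0.546), with r = -0.39 without them, so the relations of Dkk3 and Wif1 rested on MP tumors 5 and 9.

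Sfrp4 and Sfrp2 did not pass either. For Sfrp4 r was -0.03 (permutation p = 0.931, adjusted 0.965) and rho -0.15 (permutation p = 0.684, adjusted 0.829), and r was -0.65 without MP tumors 5 and 9. For Sfrp2 r was 0.41 (permutation p = 0.255, adjusted 0.459) and rho 0.55 (permutation p = 0.106, adjusted 0.269), with r = 0.26 without both tumors. Sfrp5 had r = -0.39 (permutation p = 0.222, adjusted 0.423) and rho = -0.51 (permutation p = 0.133, adjusted 0.312), and Dkk1 had r = 0.42 (permutation p = 0.145) and rho = 0.31 (permutation p = 0.401).

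The relation of Dkk2 missed the adjusted threshold with other scalings, with r = 0.95 under median-of-ratios scaling (permutation p = 0.00108, adjusted 0.543) and r = 0.95 after quantile normalization (permutation p = 0.00155, adjusted 0.535). With these scalings 4 and 2 of the 8 members had r above 0 at an unadjusted p below 0.05, beside 6.11% and 5.33% of all genes. Centred and permuted within library sets (864 exact permutations), 3 of the 8 did, beside 6.33% of all genes. There r was 0.97 for Dkk2 (exact p = 0.0289), 0.85 for Frzb (exact p = 0.0324), 0.93 for Wif1 (exact p = 0.0278), 0.82 for Sfrp1 (exact p = 0.0579), 0.65 for Dkk3 (exact p = 0.17) and 0.11 for Sfrp4 (exact p = 0.811). No gene passed after adjustment over all genes (smallest adjusted exact p = 0.579). With only 864 permutations, no single gene can reach an exact p low enough to pass that adjustment, so nothing is read from this outcome.

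**Figure D4:**
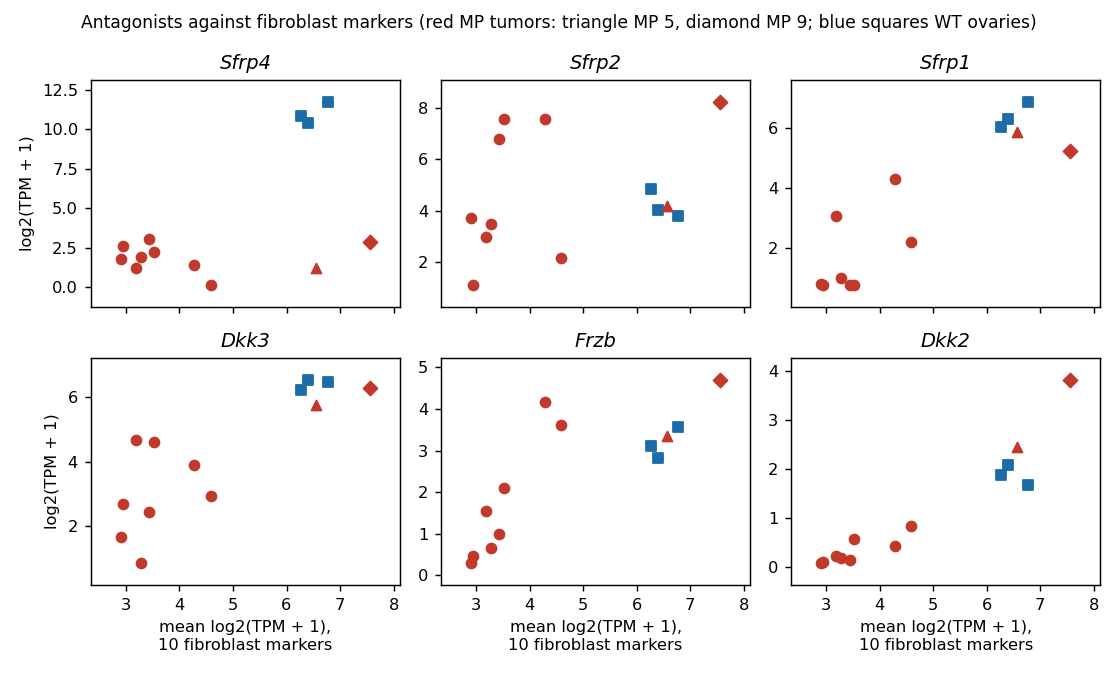
Level of 6 antagonists against the mean level of 10 fibroblast markers, both as log2(TPM + 1), in MP tumors (red circles, with MP tumor 5 as a triangle and MP tumor 9 as a diamond) and WT ovaries (blue squares). Dkk2 rises with the markers (r = 0.97 across tumors), while Sfrp4 stays at 1.32 and 6.21 TPM in MP tumors 5 and 9, whose marker levels are 6.56 and 7.56 beside 6.27 to 6.77 in the ovaries.

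Tumors of library set 1 (n = 3) were compared with those of sets 2 and 3 (n = 7), with 10564737 to 19906507 reads against 3892690 to 17178256. Of the members, 5 passed the filter among tumors. Frzb was at 0.387, 0.222 and 0.564 TPM in MP tumors 1, 2 and 3 and at 0.987 to 25.1 TPM in the others, without overlap (-2.46, SE 0.73). No set 1 tumor reached 1 TPM of Frzb, so it met the filter through sets 2 and 3 alone, where it is high, and its call supports nothing. Dkk3 was at 5.43, 2.14 and 0.781 TPM in the set 1 tumors and at 4.44 to 77.1 TPM in the others (-2.65, SE 0.76, adjusted p = 0.0163 in limma). The calls of Frzb and Dkk3 stood beside a background of 33.6% of tested genes lower and 1.42% higher in set 1, an all-gene median of -0.95, and 30.8% of genes without overlap.

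The Dkk3 call was lost under other scalings, at -1.61 with median-of-ratios scaling (limma adjusted p = 0.111), -1.46 after quantile normalization (adjusted p = 0.176) and -1.95 with voom (adjusted p = 0.158). Under each, 0 members were called lower. Members at an unadjusted p below 0.05 in limma numbered 3, 2 and 2, a count that is not split by direction. Frzb differed by -1.81, -1.55 and -2.60 under these settings. Without MP tumor 2 or 3 Dkk3 also missed the threshold, at -2.61 and -2.20 (limma adjusted p = 0.0648 and 0.0862), and Frzb missed it without MP tumor 1, 2 or 3 while its fold change stayed between -2.55 and -2.37. Sfrp2 (-2.87, SE 1.30, adjusted p = 0.106), Sfrp1 (-2.29, SE 1.02, adjusted p = 0.0974) and Sfrp4 (0.38, SE 0.62, adjusted p = 0.642) did not pass in limma. For Sfrp4 the difference was 1.39 with median-of-ratios scaling (limma adjusted p = 0.0766). After quantile normalization it was 1.66 and passed as higher in set 1 (limma adjusted p = 0.0452). The set 1 tumors were at 2.90 to 3.28 on the fibroblast marker scale and the others at 3.19 to 7.56, and the part of this level and of depth was not tested.

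The genes most like Sfrp4 were ranked by Pearson's r of log2(TPM + 1), among genes averaging at least 5 TPM. Over the 10 MP tumors, with 10944 genes compared, they were the small heat shock genes Hspb2 (r = 0.88) and Cryab (r = 0.78), the histone gene Hist1h4k (r = 0.81), Gm11266 (r = 0.80) and Gm23136 (r = 0.79). Hspb2 ranged from 2.47 TPM in MP tumor 7, where Sfrp4 was also lowest, to 62.4 TPM in MP tumor 1. Sfrp4 rested on 1 to 157 reads per tumor. Over all 13 libraries, with 11484 genes compared, they were Eif4e1b, Nap1l5, Zp2, Gm813 and E330017A01Rik (each r = 0.98). Eif4e1b and Zp2 are oocyte genes, and all of these genes averaged 1.09 TPM or less in MP tumors. That order follows the gap between ovaries and tumors, which the points share.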

How the data were processed

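Bulk polyA-selected RNA of 3 WT ovaries and 10 MP tumors was read from 1 end at 76 bp. The authors deposited 1 table of TPM values per gene and library. The submitters' processing notes name FastQC 0.11.5, Trimmomatic 0.36, STAR 2.5.3a, featureCounts 1.6.3 and mm10 (GRCm38), whereas the protocol in the labels names a human build, HTSeq and RPKM. The table was followed, and gene positions match GENCODE release 21 for 96% of its rows. TPM multiplied by length was a whole multiple of 1 step (tolerance 0.01) for all values above 0, which gave the reads.

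Values were tested as log2(TPM + 1) by limma 3.58.1 with trended, robust moderation (R 4.3.3), in genes with at least 1 TPM in at least 3 libraries, with Benjamini-Hochberg adjustment over all genes tested and a threshold of 0.05. Correlations, sums and permutations used Python 3.11.15, pandas 2.3.3, numpy 2.4.6 and scipy 1.17.1, and plots matplotlib 3.10.9. The labels do not say which samples come from separate animals, and libraries of 1 group differed by more than sampling noise, so p-values measure the spread between these samples. The scripts were tested on simulated data. Alternatives varied the pseudocount, filter, scaling, library set, replicate block, limma options, marker list and single libraries. Leaving out MP tumors 2 and 10 together and centring within library set were chosen after seeing the data.

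The members and gene lists were chosen with earlier results of these data known. Named genes are the members, in each group of the Wnt list up to 3 called genes, those of largest absolute moderated statistic, the 5 genes most correlated with Sfrp4 over tumors and over all libraries, and the genes ranked beside Sfrp4. Cyp11a1 and Akr1c18 were added after their values were seen. Promoter windows are from RefSeq (GRCm38.p6).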

Additional observations from a re-analysis of the deposited data

Results flagged for a closer look

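Dkk2 in MP tumor 9 was far from the other tumors, at 13.2 TPM with the next at 4.48 TPM, and the gap was 0.663 of the whole range of the 10 tumors. Wif1 in MP tumor 5 was the other such value, at 3.26 TPM with the next at 1.55 TPM, a gap of 0.524 of the range that rests on few reads. The critical value for 10 samples is 0.466. All 9 members were checked. Chance gives about 1 such value in 20 checks for normally distributed values, which TPM of Dkk2 and Wif1 are not, since Wif1 was at 0 in 6 tumors and the median of Dkk2 was 0.251 TPM.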

How the results depend on the processing

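Of the members' tumor and ovary differences, Sfrp4 kept its direction in every setting tried, with -9.43 to -8.77 when 1 library was left out. Sfrp5 turned to 0.014 after quantile normalization, and Sfrp2 turned to -1.46 in library set 1 alone, with or without the replicate block. The all-gene median there was -1.44. In that set Sfrp1 was at -5.51, Frzb at -2.70, Dkk2 at -1.76 and Dkk3 at -4.70. With a pseudocount of 0.1, Dkk2 moved to -2.26 and Sfrp5 to -1.68, beside an all-gene median of -0.81. Ovary and tumor replicate numbers do not pair the samples: deviations of same-numbered libraries correlated at -0.0963, -0.0214 and 0.0012. Library set 1 alone, where numbers are shared, gave 9504 genes lower, 1043 higher and 62 of the Wnt list lower. Adding the replicate block to those 6 libraries gave 9620, 1043 and 64. Against 2463 genes lower and 433 higher with all libraries, higher genes numbered 1274 with median-of-ratios scaling, 1904 after quantile normalization, 2729 with voom and 680 without MP tumors 2 and 10. Leaving out 1 library gave 604 to 3238 lower and 65 to 637 higher, and for the Wnt list 2 to 19 lower and 0 to 1 higher. The list had 7 lower with a pseudocount of 0.1 and 22 with voom, and 2 higher with median-of-ratios scaling, quantile normalization or voom. Between library sets of tumors, 5320 genes lower and 225 higher became 1761 and 2401 with median-of-ratios scaling, 1434 and 1707 after quantile normalization, 1879 and 2454 with voom, and 2733 lower without MP tumors 2 and 10. Leaving out 1 tumor gave 2984 to 5676 lower and 37 to 351 higher. The 2 lower members became 0 under each of these 4 settings and 0 to 3 with 1 tumor left out, and Sfrp4 was the 1 member higher after quantile normalization (1.66, limma adjusted p = 0.0452), against 0 otherwise. Members past the threshold against fibroblast markers, when adjusted over the 9 members and not over all genes, fell from 5 to 1 with median-of-ratios scaling and 1 after quantile normalization, to 3 without MP tumors 2 and 10, to 0 when centred within library set, and to 3 to 5 with 1 tumor left out, while 23.4% of all genes had r above 0 at an unadjusted p below 0.05, and 6.11% and 5.33% with these scalings. The r of Sfrp4 with these markers was 0.0457 without collagens, 0.109 centred within library set and -0.506 to 0.117 with 1 tumor left out, and that of Dkk1 -0.187 to 0.728. Causes of these shifts were not tested. Low depth limits Sfrp5, Dkk1 and Wif1 most, and 3 ovaries limit every comparison with tumors.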
